A study of Mus musculus with 20 samples.

Results

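Hypoxia-inducible factors (HIFs) are transcription factors whose activity follows oxygen, and the genes described here encode their subunits and the enzymes that read oxygen for them. They are the α subunits Hif1a and Epas1 (HIF-2α), the partner subunits Arnt (HIF-1β) and Arnt2, the prolyl hydroxylases Egln1, Egln2 and Egln3 (PHD2, PHD1 and PHD3), the ubiquitin ligase recognition subunit Vhl, and the asparaginyl hydroxylase Hif1an (FIH). They were chosen by symbol, and all 9 were found, each in 1 row, among 21315 gene symbols. Their mRNA was measured by bulk RNA-seq in 20 libraries of microglia, the resident macrophages of the brain, which were sorted as CD45mid CD11b+ cells from 9-month-old C57BL/6 mice of both sexes.

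The libraries fell into 6 conditions. APP-KI mice carry the APP NL-G-F knock-in: the Aβ part of the mouse App gene is changed to the human one, and 3 familial Alzheimer disease mutations (Swedish, Iberian, Arctic) are added. These mice develop amyloid plaques. C3aRKO mice lack C3ar1, the receptor of the complement fragment C3a, in every cell. The microglia of 4 conditions were sorted without regard to C3aR, here called all sorted: WT (n = 3), C3aRKO (n = 3), APP-KI (n = 3) and APP-KI;C3aRKO (n = 5), which the study bred as littermates. The remaining conditions, WT (n = 3) and APP-KI (n = 3) labelled C3aR-positive, came from a Td-tomato reporter line that also carries floxed C3ar1 alleles, and were sorted on that reporter. The labels do not say whether each library came from a separate mouse, so p-values measure the spread between libraries, part of which may be technical.

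The deposited values are reads divided by each library's 75th percentile and were multiplied by 1 common constant. These scaled values are not divided by gene length, so they compare 1 gene between libraries. Levels of different genes are compared only as reads per kilobase of exon and per 1000000 reads, here called per length. Libraries held 13939559 to 76608464 reads in genes. All 10 microglial markers were found in every condition, with summed scaled values of 10860 to 32070. The sums were 25440 to 27410 in WT and 19080 to 23860 in APP-KI libraries labelled C3aR-positive. They were 29300 to 32070 in all sorted WT, 12440 to 25900 in APP-KI, 17090 to 29860 in C3aRKO and 10860 to 28130 in APP-KI;C3aRKO libraries. The lowest sum of each of the last 3 groups was in a library that stood apart, as described next. Of the 20 libraries, 5 stood apart by their number of genes with a read, under 14000 or over 20000 against 14888 to 17450 in the others: APP-KI replicates 4 and 5, C3aRKO replicates 1 and 2, and APP-KI;C3aRKO replicate 1. All 5 belong to 1 series of library numbers (24), and each result of the all sorted mice was also computed without them. That leaves 1 library each of APP-KI and C3aRKO. Reads of the Y-linked gene Ddx3y were present (scaled value of at least 1) in 0 of 6 libraries labelled C3aR-positive, 1 of 3 WT, 1 of 3 C3aRKO, 2 of 3 APP-KI and 5 of 5 APP-KI;C3aRKO libraries.

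The targeted gene checked the labels. C3ar1 (chr6:122847138-122856161, minus strand, GRCm38) stood at 39.9 to 68.1 in C3aRKO and 61.9 to 80.4 in APP-KI;C3aRKO libraries, against 276 to 339.989 in WT and 165 to 388 in APP-KI libraries. The WT libraries labelled C3aR-positive held 71.0, 81.2 and 37.6, at the level of the knockout and below every unselected WT library. Taken alone, this goes against their label, so they are called "labelled C3aR-positive" throughout. The paper states that the reporter sits in the endogenous C3ar1 locus. The allele measured in both groups of that label thus differs from that of all sorted WT and APP-KI libraries, and its part in these values was not tested. The APP-KI libraries of that label held 383, 251 and 201, and the log2 difference between these groups in C3ar1 was 2.14 (SE 0.30, limma adjusted p = 0.001).

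When oxygen is plentiful, the prolyl hydroxylases mark HIF-α proteins, VHL binds the mark, and the α subunits are degraded. FIH hydroxylates an asparagine of HIF-α and blocks the binding of coactivators. When oxygen is low, HIF-α persists, pairs with ARNT or ARNT2 and binds DNA at the core letters ACGTG or GCGTG, and EGLN1 and EGLN3 are themselves HIF target genes. HIF activity is set largely at the protein level, and only mRNA was measured here. In macrophages and microglia HIF-1α is known for raising glycolytic genes.

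Hif1a, Arnt2 and Egln3 are the members that rose with APP-KI in each of 3 comparisons, so their promoters are shown. The 250 bases before the RefSeq start (GRCm38.p6) are printed 5′ to 3′ on the gene's strand, with matches to ACGTG on either strand in capitals. The windows are chr12:73907617-73907866 (plus strand) for Hif1a, chr7:84410039-84410288 (minus strand) for Arnt2 and chr12:54203875-54204124 (minus strand) for Egln3.
Hif1a: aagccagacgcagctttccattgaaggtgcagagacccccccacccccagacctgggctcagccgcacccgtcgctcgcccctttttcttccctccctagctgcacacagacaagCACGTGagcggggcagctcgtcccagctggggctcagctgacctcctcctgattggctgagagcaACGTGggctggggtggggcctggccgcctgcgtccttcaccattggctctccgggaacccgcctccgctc
Arnt2: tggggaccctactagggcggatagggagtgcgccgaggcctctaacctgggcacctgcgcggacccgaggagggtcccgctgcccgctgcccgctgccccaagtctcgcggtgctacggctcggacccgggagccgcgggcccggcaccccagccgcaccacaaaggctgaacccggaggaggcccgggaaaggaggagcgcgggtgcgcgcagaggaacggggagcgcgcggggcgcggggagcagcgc
Egln3: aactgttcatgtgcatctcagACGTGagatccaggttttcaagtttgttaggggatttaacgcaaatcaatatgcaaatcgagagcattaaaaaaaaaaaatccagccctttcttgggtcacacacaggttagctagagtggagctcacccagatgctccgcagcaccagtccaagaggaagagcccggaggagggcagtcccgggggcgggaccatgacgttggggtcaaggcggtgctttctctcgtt
The Hif1a window holds ACGTG 3 times, of which 2 matches overlap as the palindrome at 135 to 130 bases before the start, and the third lies 70 to 66 bases before it. The Egln3 window holds 1 match, at 229 to 225 bases before the start. The Arnt2 window holds neither ACGTG nor GCGTG. Among the other members with a promoter entry, Egln1 held 1 match to each motif, Arnt 1 to GCGTG, Egln2 ACGTG at 1 of its 2 starts and GCGTG at both, and Vhl and Hif1an held none. ACGTG occurs in 16.57% of 32851 promoter windows of the same length, GCGTG in 28.16% and either in 38.6%. A match is a description of letters and not a binding site.

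**Figure D1:**
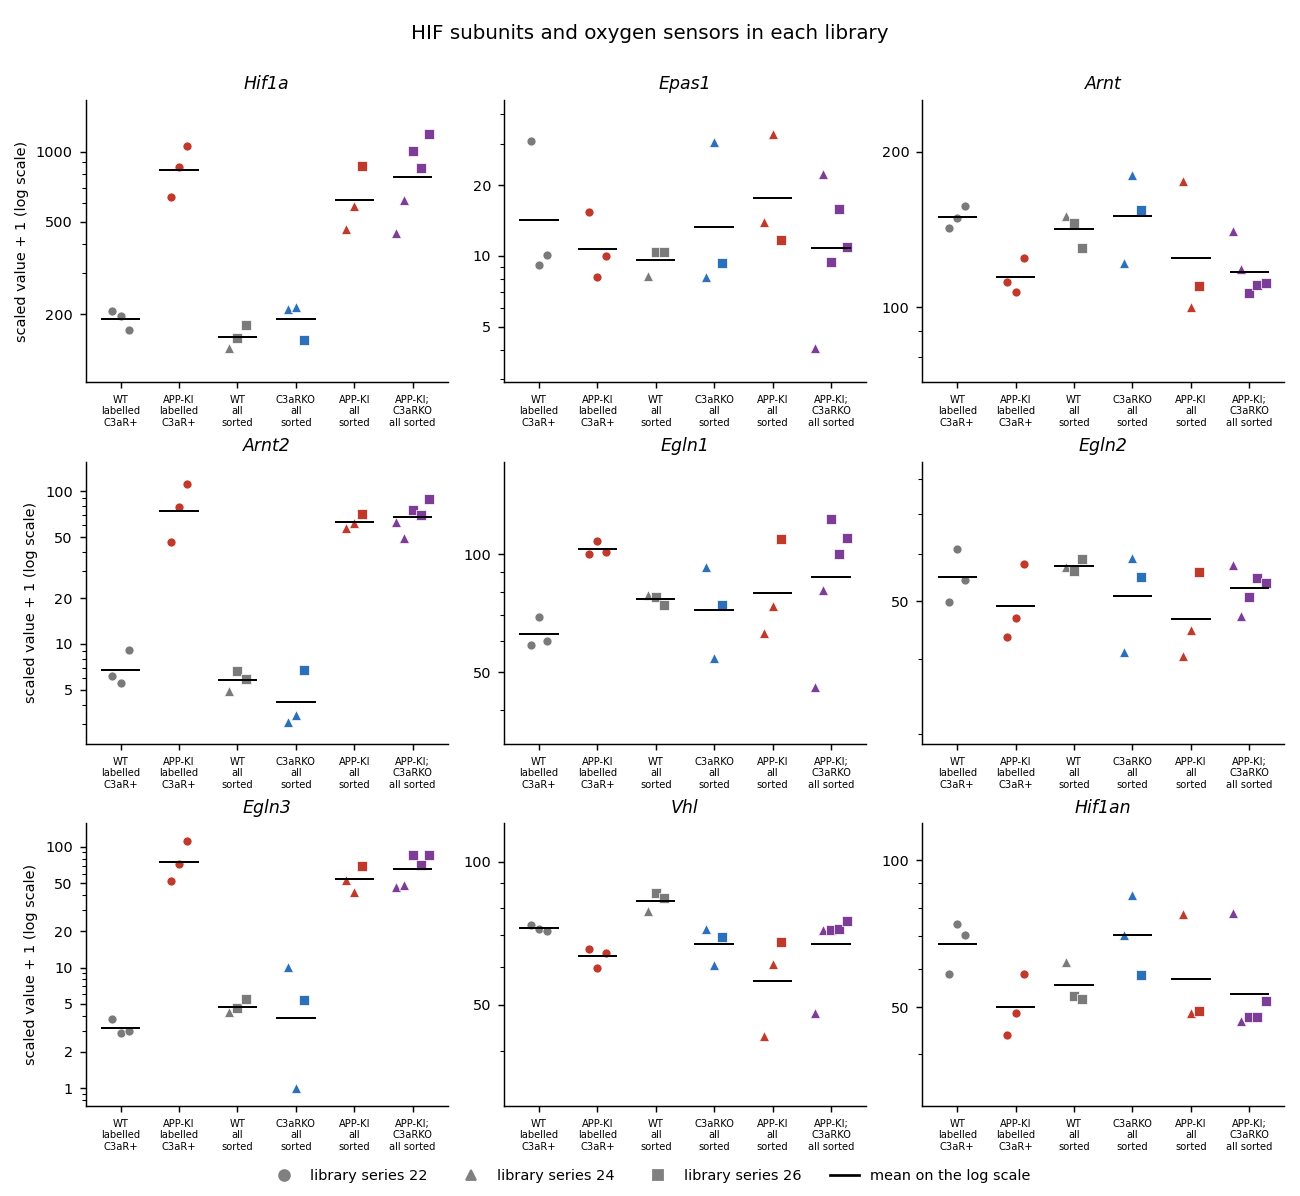
Scaled value plus 1 of each member in every library (log axis, a panel per gene), by the 6 conditions, with marker shapes for the series of library numbers and a line at the mean on the log scale. In the Hif1a, Arnt2 and Egln3 panels every library that carries APP-KI lies above every library that does not, as in no other panel.

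Hif1a (chr12:73901375-73947530, plus strand), the α subunit of HIF-1, rose 3.74-fold to 4.38-fold with APP-KI in each of 3 comparisons. WT libraries held scaled values of 142, 157 and 179, and C3aRKO libraries 209, 213 and 154. WT libraries labelled C3aR-positive held 206, 196 and 169.9. The 9 libraries without APP-KI thus lay between 142 and 213. APP-KI libraries held 463, 585 and 869.8, those labelled C3aR-positive 639, 862 and 1061, and APP-KI;C3aRKO libraries 447, 619.8, 1010.3, 849 and 1193. No library with APP-KI overlapped one without it. Against WT, the log2 difference was 2.13 (SE 0.18, 95% CI 1.74 to 2.53, adjusted p = 6.76e-05) in libraries labelled C3aR-positive and 2.11 (SE 0.27, adjusted p = 0.000283) in all sorted microglia. APP-KI;C3aRKO against C3aRKO gave 1.90 (SE 0.24, adjusted p = 0.000163). The all sorted libraries of series 24 and 26 taken apart gave 1.87 and 2.37 for APP-KI against WT, and 1.31 and 2.70 for APP-KI;C3aRKO against C3aRKO. These rest on few libraries: 2 against 1 and 1 against 2 for the first comparison, and 2 against 2 and 3 against 1 for the second. In series 24, all APP-KI and all C3aRKO libraries are among those that stood apart. Markers of border macrophages (6 of 6 found) moved the other way, with summed values of 461 to 686 against 177 to 393 in libraries labelled C3aR-positive, 435 to 1166 against 256 to 279 in all sorted WT and APP-KI, and 347 to 580.4 against 189 to 342 in C3aRKO and APP-KI;C3aRKO libraries, and their part in these results was not tested. Exons of the antisense gene Gm15283 share 330 bases with Hif1a, and Gm49321 on the same strand shares 148. Reads in the bases shared with Gm49321 cannot be assigned to Hif1a alone, and those shared with Gm15283 cannot where counting ignored strand.

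Epas1 (chr17:86753700-86833410, plus strand), which encodes HIF-2α and is known for its role in endothelial cells, stayed low and uneven. Its group means ran from 8.67 ± 1.26 (SD, n = 3) in WT to 18.5 ± 11.6 (n = 3) in APP-KI. Single libraries stood high in several conditions: 29.8 in WT labelled C3aR-positive replicate 1, 31.9 in APP-KI replicate 5, 29.4 in C3aRKO replicate 2, and 21.2 in APP-KI;C3aRKO replicate 2. None of the comparisons called Epas1 changed, and its log2 difference for APP-KI against WT was −0.40 (95% CI −1.50 to 0.70) in libraries labelled C3aR-positive and 0.81 (95% CI −0.56 to 2.19) in all sorted microglia. All 9 endothelial and pericyte markers were found. Summed without Flt1 they ranged from 63.8 to 128 in WT and 52.4 to 57.2 in APP-KI libraries labelled C3aR-positive, without overlap. With Flt1 these sums were 76.4 to 149.8 and 207.8 to 367.6, apart in the other direction. All sorted WT and APP-KI libraries had 87.1 to 115.2 and 226.4 to 302.4 with Flt1. Without Flt1 the range was 77.2 to 104 in all sorted WT, 51.7 to 111.5 in C3aRKO, 55.9 to 112 in APP-KI and 36.2 to 81.4 in APP-KI;C3aRKO libraries. The part of these cells in the Epas1 values was not tested. In bulk samples, fewer cells of a type and less RNA per cell cannot be told apart. Per length, Epas1 stood at 5.74% ± 0.495 of Hif1a in all sorted WT and 3.34% ± 2.24 in all sorted APP-KI, and at 8.43% ± 5.95 in WT and 1.37% ± 0.856 in APP-KI libraries labelled C3aR-positive.

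The partner subunits moved apart from each other. Arnt2 (chr7:84246278-84410176, minus strand), best known from neurons, rose by 3.46 to 3.896 on the log2 scale with APP-KI, from a low base. It stood at 3.92, 5.68 and 4.92 in WT, 2.09, 2.44 and 5.70 in C3aRKO, and 5.14, 4.54 and 8.12 in WT labelled C3aR-positive libraries. APP-KI libraries held 56.5, 60.9 and 70.3, those labelled C3aR-positive 45.2, 78.2 and 110.9, and APP-KI;C3aRKO libraries 61.6, 48.4, 74.6, 69.1 and 88.1. The lowest library with APP-KI (45.2) lay far above the highest without it (8.12). The log2 differences were 3.46 (SE 0.35, adjusted p = 0.000211) for libraries labelled C3aR-positive, 3.62 (SE 0.26, adjusted p = 8.02e-07) for all sorted microglia and 3.896 (SE 0.23, adjusted p = 6.98e-08) for APP-KI;C3aRKO against C3aRKO. Within series 24 and 26 the last 2 were 3.60 and 3.50, and 4.09 and 3.54, with 1 to 3 libraries a side. Summed neuronal markers (8 of 8 found) were 5.13 to 10.9 in WT and 4.55 to 6.92 in APP-KI libraries labelled C3aR-positive. They were 6.48 to 7.78 in all sorted WT and 1.39 to 27 in all sorted APP-KI libraries. In C3aRKO and APP-KI;C3aRKO libraries they were 5.205 to 8.11 and 4.17 to 7.87. The part of these markers' cells in the Arnt2 result was not tested. The antisense gene Gm30873 shares 214 exon bases (2.78%) with Arnt2.

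Arnt (chr3:95434388-95497240, plus strand), the constitutive partner of HIF-α and of the dioxin receptor, was lower with APP-KI by a small amount that did not hold across settings. WT libraries labelled C3aR-positive held 141, 147 and 156, and APP-KI libraries of that label 110.9, 106 and 124, without overlap. The log2 difference was −0.39 (SE 0.11, adjusted p = 0.0378), where the median over all genes was −0.17. With median ratio scaling, which moved that median to −0.04, Arnt was at −0.25 and was not called. The call was also lost without 5 of the 6 libraries, one at a time (WT labelled C3aR-positive replicates 1, 2 and 3, and APP-KI labelled C3aR-positive replicates 1 and 2), with adjusted p from 0.0733 to 0.13, and under limma without trend, edgeR and DESeq2. For all sorted microglia it was −0.24 (95% CI −0.67 to 0.20), and for APP-KI;C3aRKO against C3aRKO −0.32 (95% CI −0.71 to 0.07). Without the 5 libraries that stood apart, which leaves 1 APP-KI and 1 C3aRKO library, these became −0.32 and −0.50.

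Per length, Arnt2 stood at a larger share of Arnt in every library with APP-KI than in any library without it. It made up 3.61% ± 0.749 (SD, n = 3) of Arnt in WT, 4.14% ± 1.15 (n = 3) in WT labelled C3aR-positive and 2.37% ± 1.32 (n = 3) in C3aRKO libraries. It reached 55.0% ± 18.5 (n = 3) in APP-KI, 71.0% ± 26.1 (n = 3) in APP-KI labelled C3aR-positive and 62.3% ± 17.4 (n = 5) in APP-KI;C3aRKO libraries. The sum of both was 18.2 ± 1.06 per length in WT and 24.8 ± 4.94 in APP-KI libraries.

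**Figure D2:**
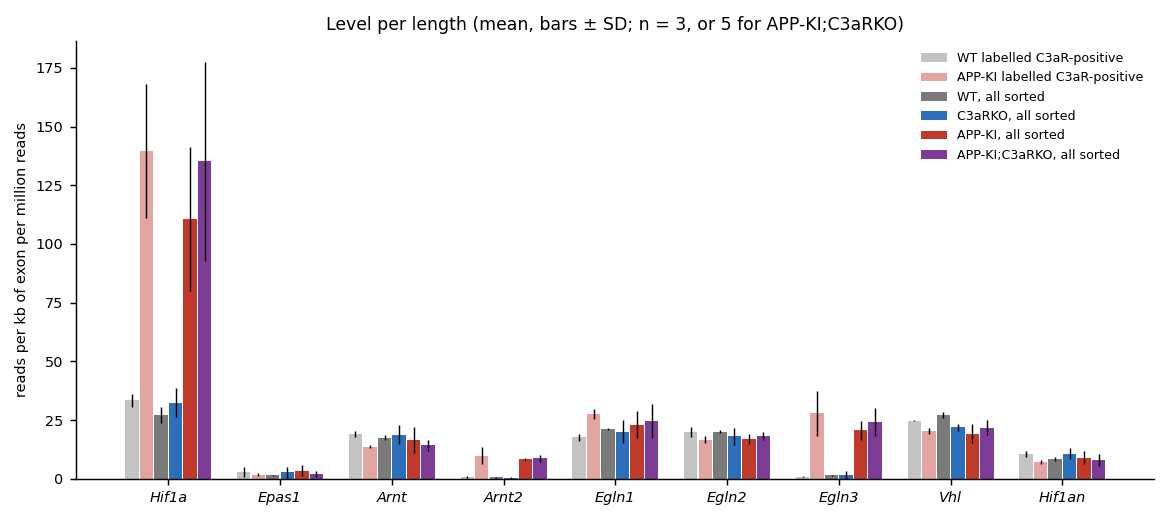
Mean level of each member per length (bars from 0, in reads per kilobase of exon and per 1000000 reads) in the 6 conditions, with lines for ± 1 SD between libraries (n = 3, or 5 for APP-KI;C3aRKO). In the WT group Vhl (27.3) and Hif1a (27.0) lead and Arnt2 (0.629) is lowest, while in APP-KI Hif1a (111) leads and Egln3 (20.6) and Arnt2 (8.36) have moved up.

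Egln3 (chr12:54178981-54203860, minus strand), a prolyl hydroxylase that HIF is known to induce, rose from a low base in all 3 comparisons. It stood at 3.30, 3.58 and 4.46 in WT, 9.18, 0 and 4.37 in C3aRKO, and 2.76, 1.86 and 1.96 in WT labelled C3aR-positive libraries. C3aRKO replicate 2 had 0 of 61843354 reads, which allows up to 0.0472 scaled, the value of 3 reads, by counting error alone. APP-KI libraries held 52.3, 41.3 and 67.9, those labelled C3aR-positive 50.7, 70.9 and 110.8, and APP-KI;C3aRKO libraries 45.2, 47.5, 84.9, 69.7 and 84.6. Every library with APP-KI lay above every library without it. The log2 differences were 4.56 (SE 0.34, adjusted p = 4.24e-05) for libraries labelled C3aR-positive, 3.70 (SE 0.58, adjusted p = 0.00172) for all sorted microglia and 3.94 (SE 0.52, adjusted p = 0.00023) for APP-KI;C3aRKO against C3aRKO. The second was not called with a pseudocount of 0.1 (adjusted p = 0.0705) or by edgeR (adjusted p = 0.0567), and the third was 3.10 without C3aRKO replicate 2 and 4.72 without replicate 1. Within series 24 and 26 the second was 3.46 and 3.78 and the third 3.89 and 3.903, with 1 to 3 libraries a side.

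Egln1 (chr8:124908587-124949324, minus strand), which encodes the main HIF prolyl hydroxylase of most cells, rose in libraries labelled C3aR-positive. WT libraries of that label held 57.6, 68.1 and 59.2, and APP-KI libraries 98.8, 106.8 and 99.9, without overlap. The log2 difference was 0.72 (SE 0.13, 95% CI 0.43 to 1.004, adjusted p = 0.00364). In all sorted microglia WT libraries held 77.7, 76.6 and 73.2 and APP-KI libraries 61.9, 72.6 and 108, with a difference of 0.21 (95% CI −0.38 to 0.79) and no call. APP-KI;C3aRKO libraries held 44.9, 80.2, 121.9, 99.2 and 109 against 91.6, 53.4 and 73.0 in C3aRKO, with 0.15 (95% CI −0.37 to 0.67). Series 24 and 26, with 1 to 3 libraries a side, gave opposite signs in both of these comparisons, −0.21 and 0.53, and −0.22 and 0.58. Without the libraries that stood apart, which leaves 1 C3aRKO library, APP-KI;C3aRKO against C3aRKO gave 0.52.

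Egln2 (chr7:27158658-27166802, minus strand), which encodes PHD1, did not pass the test in any comparison. Its scaled values ranged from 39.4 to 60.1 over the 20 libraries, with log2 differences of −0.16 (95% CI −0.53 to 0.21), −0.26 (95% CI −0.65 to 0.14) and 0.01 (95% CI −0.34 to 0.36) for the same 3 comparisons. The share of Egln3 in the summed prolyl hydroxylase level per length was 3.33% ± 0.531 (n = 3) in WT, 2.25% ± 0.683 (n = 3) in WT labelled C3aR-positive and 3.99% ± 3.98 (n = 3) in C3aRKO libraries. With APP-KI it was 34.2% ± 4.20 (n = 3), 38.0% ± 7.87 (n = 3) and 35.8% ± 3.11 (n = 5) in the all sorted, labelled C3aR-positive and APP-KI;C3aRKO libraries. Their sum per length was 42.6 ± 0.736 in the WT group and 60.5 ± 10.9 in APP-KI, and went from 38.5 ± 3.44 to 72.1 ± 9.996 in libraries labelled C3aR-positive.

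Vhl (chr6:113623959-113631633, plus strand), which encodes the recognition subunit of the ligase, was lower in APP-KI than in WT libraries without passing the test. Its values were 77.7, 85.0 and 82.8 in WT against 41.9, 59.9 and 66.7 in APP-KI libraries, and 72.7, 71.3 and 70.5 against 64.7, 58.8 and 63.3 in libraries labelled C3aR-positive. The groups did not overlap in either pair, as for 29.3% and 43.5% of all genes tested. The log2 differences were −0.48 (95% CI −0.89 to −0.07, adjusted p = 0.258) and −0.20 (95% CI −0.48 to 0.08, adjusted p = 0.276). The first was −0.31 without the libraries that stood apart, with 1 APP-KI library left. APP-KI;C3aRKO against C3aRKO gave −0.07 (95% CI −0.43 to 0.29) with overlapping groups, and 0.09 without the libraries that stood apart. The lower level was not particular to APP-KI. C3aRKO libraries, at 71.3, 59.5 and 68.3, also lay below all sorted WT without overlap (−0.22, 95% CI −0.63 to 0.19, not called). Hif1an (chr19:44562850-44576274, plus strand), which encodes FIH, gave −0.43 (95% CI −0.80 to −0.06, adjusted p = 0.0896) in libraries labelled C3aR-positive, which was called only without APP-KI labelled C3aR-positive replicate 3 (adjusted p = 0.0486). For all sorted microglia it was −0.06 (95% CI −0.52 to 0.40).

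**Figure D3:**
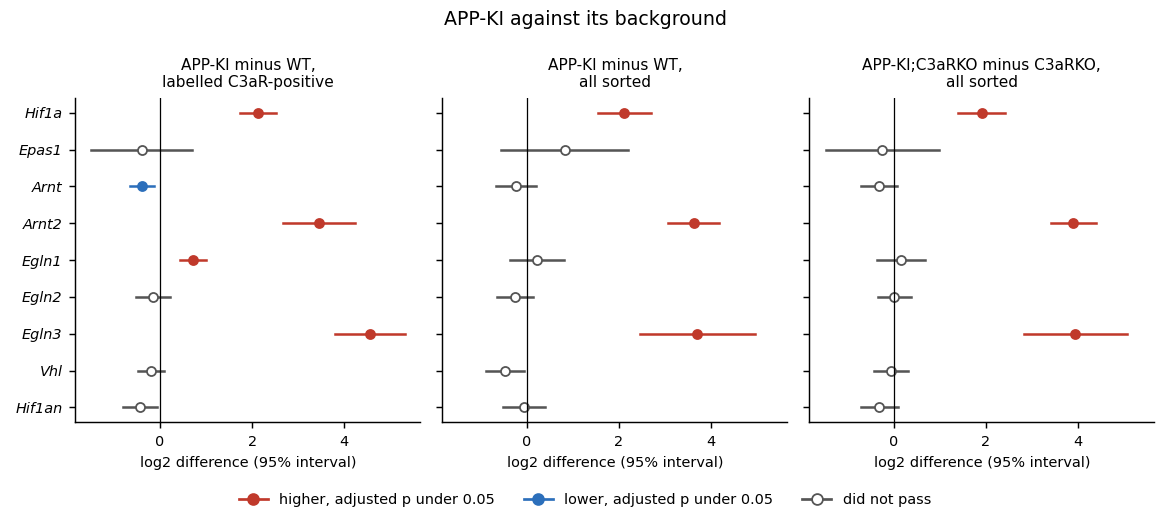
Log2 difference with its 95% confidence interval for the 9 members in 3 comparisons, APP-KI against WT in libraries labelled C3aR-positive and in all sorted microglia, and APP-KI;C3aRKO against C3aRKO. Hif1a (2.13, 2.11 and 1.90), Arnt2 (3.46, 3.62 and 3.896) and Egln3 (4.56, 3.70 and 3.94) lie far above 0, while filled points also mark Egln1 (0.72) and Arnt (−0.39) in libraries labelled C3aR-positive.

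Counted over the 9 members, 4 rose (Hif1a, Arnt2, Egln1, Egln3) and 1 fell (Arnt) in libraries labelled C3aR-positive, where 22.7% of 12315 genes tested were called (9.70% lower, the remainder higher). The groups did not overlap for 6 of the 9 (Hif1a, Arnt2, Egln1 and Egln3 higher, Arnt and Vhl lower), against 43.5% of all genes. In all sorted microglia 3 rose and 0 fell, where 4.14% of 12410 genes were called (2.22% higher, 1.93% lower), and the groups did not overlap for 6 (Hif1a, Epas1, Arnt2 and Egln3 higher, Egln2 and Vhl lower), against 29.3% of all genes. APP-KI;C3aRKO against C3aRKO also had 3 that rose and 0 that fell, where 6.93% of 12410 were called (3.96% higher, 2.97% lower), and the groups did not overlap for those 3, against 13.7% of all genes. Without the libraries that stood apart these were 5 called in each (15.7% and 34.3% of all genes tested). All 9 members passed the filter on low values in each comparison. These 3 comparisons share no libraries, but the last 2 share 1 estimate of the spread.

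Loss of C3ar1 was compared next, to ask whether the members followed the receptor. C3aRKO against WT and APP-KI;C3aRKO against APP-KI share no libraries with each other, but they use the WT, APP-KI, C3aRKO and APP-KI;C3aRKO libraries of the comparisons above. The background is thin: 0.00806% of 12410 genes were called in each comparison, a single gene (C3ar1), so a lack of calls among the members is what these data give for nearly all genes. Without adjustment, p was under 0.05 for 123 genes that were higher and 221 that were lower in the first and for 38 and 109 in the second, and 0 of 9 members were called in either (limma; also 0 with edgeR and DESeq2). Hif1a, at 209, 213 and 154 in C3aRKO against 142, 157 and 179 in WT, had a log2 difference of 0.41 (95% CI −0.16 to 0.99). It turned to −0.21 without the libraries that stood apart, and was 0.57 and −0.12 within series 24 and 26 (2 against 1 and 1 against 2 libraries). Between APP-KI;C3aRKO and APP-KI, with overlapping values given above, Hif1a gave 0.21 (95% CI −0.30 to 0.72), Arnt2 −0.04 (95% CI −0.53 to 0.46), Egln1 0.01 (95% CI −0.51 to 0.53) and Egln3 0.12 (95% CI −0.995 to 1.23). C3ar1 itself fell by 2.39 (adjusted p = 0.00338) and 1.95 (adjusted p = 0.00971), and the calls are lost without WT replicate 4 (adjusted p = 0.0553), or without APP-KI replicate 5 (0.114) or 6 (0.453). For the difference between backgrounds, Hif1a gave −0.20 (95% CI −0.99 to 0.58), Arnt2 0.27 (95% CI −0.49 to 1.03) and Egln3 0.24 (95% CI −1.47 to 1.95), with 0.00% of 12410 genes called (unadjusted p under 0.05 for 111 higher and 92 lower; edgeR called 0, DESeq2 1).

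**Figure D4:**
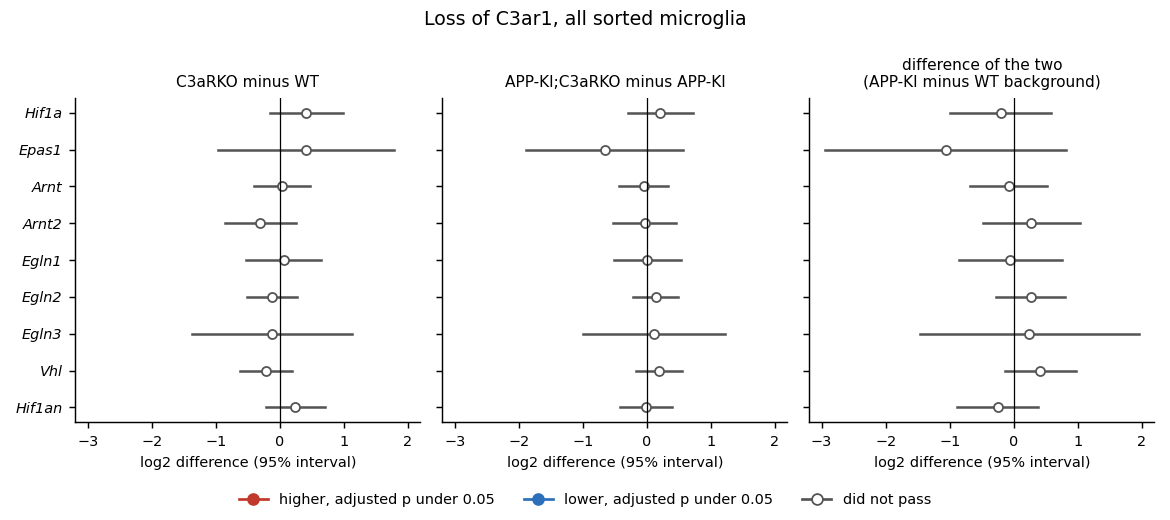
Log2 difference with its 95% confidence interval for the 9 members between C3aRKO and WT, between APP-KI;C3aRKO and APP-KI, and for the difference of these effects. All points are open (none passed the test) and every interval reaches across 0, Hif1a lying at 0.41, 0.21 and −0.20.

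The 2 sorts were set against each other within each genotype. Sort, reporter line and series of library numbers (22 in all libraries labelled C3aR-positive) cannot be told apart here. Y-linked Ddx3y, at 0 to 0.0356 scaled in those 6 libraries, was also below 0.0356 in 2 of 3 all sorted WT and 1 of 3 all sorted APP-KI libraries, and its part was not tested. None of the 9 members were called in either genotype or in the difference of the APP-KI effect, as 0.00% of 12592 genes were called by limma. Without adjustment, p was under 0.05 for 126 higher and 426 lower in WT, 200 and 457 in APP-KI, and 836 and 644 for the difference. On recovered reads DESeq2 called 1 and 35, 1 and 27, and 87 and 33. In WT, Egln1 (−0.30), Egln3 (−0.59) and Vhl (−0.19) were lower in the libraries labelled C3aR-positive without overlap between the groups, and 23.0% of all genes tested did not overlap in either direction. The APP-KI effect was larger in libraries labelled C3aR-positive by 0.67 for Egln1 (95% CI 0.14 to 1.19, limma adjusted p = 0.394) and by 1.06 for Egln3 (95% CI 0.15 to 1.97, adjusted p = 0.404), neither of which passed. Hif1a was 0.44 higher (95% CI −0.05 to 0.92) in APP-KI libraries of that label, with overlapping groups, and C3ar1 gave −2.37 in WT (95% CI −3.09 to −1.64, adjusted p = 0.111), which was called by DESeq2 (adjusted p = 2.33e-08) and without the libraries that stood apart (0.0232). The APP-KI effect on C3ar1 was larger by 2.345 in libraries labelled C3aR-positive (95% CI 1.32 to 3.37, adjusted p = 0.394), which DESeq2 called (0.000671). Among members, the difference of the APP-KI effect was 0.18 for Hif1a and 0.01 for Arnt2 (95% CI −0.92 to 0.94). Egln1 is thus called in 1 sort and not in the other, while the test of the difference between them did not pass.

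Lists of related genes put the members in context, and each was chosen with earlier results of these data known. Of 29 HIF target genes tested, 16 rose and 2 fell with APP-KI in libraries labelled C3aR-positive, where 22.7% of all genes were called, with a median log2 difference of 1.07 against −0.17 over all genes. Bhlhe40, a HIF-induced repressor, went from 12.8 ± 3.17 to 159 ± 52.4 (n = 3 and 3, log2 difference 3.51, adjusted p = 4.84e-05). Vegfa, the angiogenic ligand, rose by 2.37, Bnip3, a mitophagy receptor, by 1.91, and Tpi1, a glycolytic enzyme, by 1.75. Ddit4, an mTORC1 inhibitor, fell by 1.84 (adjusted p = 0.00945) and Hk1, a hexokinase, fell by 0.69, with a call lost without WT labelled C3aR-positive replicate 1 or 2 or APP-KI labelled C3aR-positive replicate 1. In all sorted microglia 7 rose and 0 fell (median 0.64 against −0.01, 4.14% of all genes called), led by Bhlhe40 (4.15, adjusted p = 0.0024) and Tpi1 (1.63, adjusted p = 0.000178). That count was 2 to 6 without 1 library, as it moved most without WT replicates 4, 5 or 6 or APP-KI replicate 6. Pgk1 (1.54), a glycolytic enzyme, lost its call without WT replicate 4, 5 or 6 or APP-KI replicate 6. In APP-KI;C3aRKO against C3aRKO 7 rose and 1 fell (median 0.79 against −0.03, 6.93% of all genes called). The count that rose was 4 to 8 without 1 library (lowest without C3aRKO replicate 3). Tpi1 rose by 1.69, Slc16a3, a lactate transporter, by 1.44 and Slc2a1, a glucose transporter, by 1.27. Bhlhe40 rose by 2.79 (adjusted p = 0.0116), which became 1.45 (adjusted p = 0.0888) without C3aRKO replicate 3 and 3.75 without C3aRKO replicate 2, and which edgeR and DESeq2 on recovered reads did not call. Ddit4 fell by 2.21 (adjusted p = 0.0428) with overlapping groups, a gene named after its value was seen, and it was not called without C3aRKO replicate 1 or 3 or APP-KI;C3aRKO replicate 5. None of the 29 were called with loss of C3ar1, as was so for nearly all genes (0.00806% of 12410 called in each comparison).

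Of 26 tested regulators of HIF, 6 rose and 0 fell in libraries labelled C3aR-positive (median −0.14 against −0.17). Counted in either direction, their share was near the 22.7% of all genes called. By direction, 1602 of 12315 genes were called higher and 1195 lower. Rack1, which promotes degradation of HIF-1α, went from 187 ± 15.2 to 481 ± 48.4 (1.36, adjusted p = 9.76e-05). Cited4, a CBP/p300-binding competitor, stood at 0 to 0.293 in WT and 3.52 to 9.75 in APP-KI libraries (2.69), Elob, a subunit of the VHL ligase, rose by 1.05, and P4htm, a transmembrane prolyl hydroxylase, by 1.69, with a call lost without any library but APP-KI labelled C3aR-positive replicate 1 (adjusted p 0.0863 to 0.103). In all sorted APP-KI against WT 0 of 26 were called, where 4.14% of all genes were. In APP-KI;C3aRKO against C3aRKO, where 6.93% of all genes were called, only Rack1 was (1.11, adjusted p = 0.0167), lost without C3aRKO replicate 2 or 3. Of 18 other oxygen-dependent hydroxylases tested, 2 rose and 6 fell in libraries labelled C3aR-positive (median −0.26 against −0.17), where 22.7% of all genes were called and 9.70% were called lower. Those that fell include Plod1, a collagen lysyl hydroxylase, from 265 ± 9.64 to 153 ± 6.14 (−0.79, adjusted p = 0.000746), and the histone demethylase Kdm6b (−1.03, adjusted p = 0.00105). The count that fell was 3 to 7 without 1 library (moved most without WT labelled C3aR-positive replicates 1 or 3), and P4htm and Ado, a cysteamine dioxygenase (0.79), lost their calls without most single libraries. In all sorted microglia, where 1.93% of all genes were called lower, 1 fell, Plod1 (−1.13, adjusted p = 0.0151, but 0.183 without WT replicate 4). In APP-KI;C3aRKO against C3aRKO, where 3.96% of all genes were called higher, only Ado rose (0.80, adjusted p = 0.0102). Of the other bHLH-PAS factors, 6 were tested, and only Npas4 in all sorted microglia was called (2.73, adjusted p = 0.0341), from 0.11 ± 0.19 to 7.35 ± 4.79, which was lost without any library but APP-KI replicate 6.

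**Figure D5:**
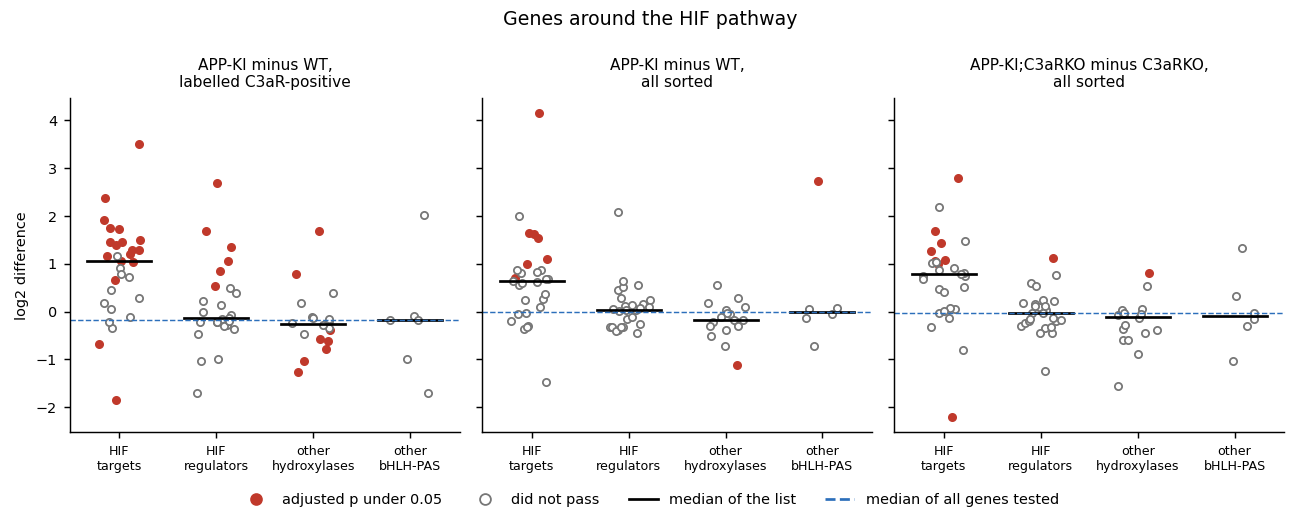
Log2 difference of each tested gene of 4 lists in 3 comparisons, with filled points for adjusted p under 0.05, a solid line at the list's median and a dashed line at the median of all genes tested. The HIF targets have medians of 1.07, 0.64 and 0.79 in the 3 comparisons, above the dashed line.

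The genes with the most similar pattern over the 20 libraries were found among 12377 genes by the root mean square difference of centred log2 values. Hif1a was nearest to Aplp2 (0.171), Vat1 (0.184) and Tpi1 (0.294). Arnt2 was nearest to Flt1 (0.393), Pacsin1 (0.399) and Fam20c (0.408). Egln3 was nearest to C77080 (0.606), Fam20c (0.615) and Ch25h (0.616). Egln1 was nearest to Mrfap1 (0.123), Ctss (0.133) and Atp5b (0.135), and Arnt to Ppp4r1 (0.0879), Ppp4r3a (0.0931) and Ell (0.109). Arnt2 and Egln3 differed by 0.696 from each other. Flt1, a receptor of VEGF that is also an endothelial marker, had scaled values of 78.4 to 314 in libraries with APP-KI and 7.0 to 22.2 in the others. Pecam1, another endothelial marker, separated the other way, at 0.294 to 20.5 with APP-KI and 21.4 to 42.2 without it. The remaining endothelial and pericyte markers (Cldn5, Kdr, Cdh5, Tek, Slco1c1, Rgs5 and Pdgfrb) overlapped between libraries with and without APP-KI. The part of these markers' cells in the Arnt2 pattern was not tested.

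Across conditions, the means of Hif1a, Arnt2 and Egln3 were in the same order, highest in APP-KI labelled C3aR-positive, then APP-KI;C3aRKO, then APP-KI. These 3 overlapped, and the next condition lay below them without overlap for each of the 3 genes. Egln3 in WT lay above WT labelled C3aR-positive without overlap. For Arnt, Egln2, Epas1, Hif1an and Egln1 the ranges of neighbours in the order overlapped throughout, while for Vhl the highest, WT, lay above WT labelled C3aR-positive without overlap.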

How the data were processed

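Microglial libraries were grouped by the genotype and sort in the labels. Per the submitters' notes and the study's methods, reads were trimmed with cutadapt, aligned to mm10 with TopHat2, counted per gene with featureCounts and analysed with DESeq2. Libraries were made with the Takara SMARTer Total RNA Pico kit, which adds molecular identifiers, and sequenced on a NovaSeq instrument; whether the identifiers were used in counting, and whether counting used strand, is not given in the sources used here. The deposited values carry the name FPKM. Tested on the files, however, they are a signal that the authors made by dividing reads by each library's 75th percentile of reads, without regard to gene length. In each library, 100% of the values gave whole reads back (tolerance 0.1 read). Count models were used only as alternatives, on those recovered reads.

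The scaling constant was 35.2031, and a single read then amounts to 0.0132 to 0.0786. The log2(value + 1) of genes with a mean of at least 1 was fitted with limma 3.58.1 (trend; R 4.3.3), p-values were two-sided and adjusted over all genes by Benjamini-Hochberg, and genes were called at an adjusted p under 0.05. Fold changes on this scale understate the change of low genes. The libraries labelled C3aR-positive were fitted alone, the 14 all sorted libraries together with a term for the series of library numbers (24 or 26, whose meaning is not given in the sources used here), and the sorts on the 12 WT and APP-KI libraries without it. The alternatives were other pseudocounts, filters, scalings and designs, edgeR 4.0.16 and DESeq2 1.42.0 on recovered reads, a replicate block, and leaving out each library. The alternatives of leaving out the 5 libraries that stood apart and of adding a term for Y-linked reads were chosen after seeing the data. The main limma fit was tested on simulated data.

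Positions and exon lengths came from GENCODE M21 (GRCm38), where 20968 of 21315 symbols matched, and promoters from RefSeq (GRCm38.p6). The 9 members and the lists were chosen with earlier results of these data known. Named list genes are up to 4 per direction with the largest change among those called whose groups do not overlap. A gene that this rule names is not reported here. Aldoa, with 2 rows, was left out of the HIF targets. The limit for a count of 0 covers counting error only, and the 95% confidence intervals of log2 differences cover the spread between libraries.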

Additional observations from a re-analysis of the deposited data

Results flagged for a closer look

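In APP-KI;C3aRKO replicate 1, Vhl had a scaled value of 47.1 against 70.9 to 74.1 in the other 4 libraries of the group. Its gap to the nearest of them was 0.883 of the group's range, above Dixon's critical value of 0.71 for 5 samples. Hif1an in the same library stood at 77.1 against 45.8 to 50.5 in the others, with a gap of 0.85 of the range. Chance sets off this test in about 1 in 20 groups. The library is one of the 5 that stood apart by their number of genes with a read, and its part in either value was not tested.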

How the results depend on the processing

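Hif1a and Arnt2 kept their direction and call for APP-KI in all 3 comparisons under every alternative run, and Egln3 did so except, in all sorted APP-KI against WT, with a pseudocount of 0.1, with edgeR and at an adjusted p under 0.0005. The number of members called moved by over 1.5 times under 3 settings: it was 3 in libraries labelled C3aR-positive at an adjusted p under 0.0005 (5 at 0.05), and 5 without the libraries that stood apart in all sorted APP-KI against WT and in APP-KI;C3aRKO against C3aRKO (3 each with them). That setting leaves 1 library each of APP-KI and C3aRKO, assumed to vary like the other groups.

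Signs turned only for log2 differences that were not called, and the cause was not tested. Without the libraries that stood apart, C3aRKO against WT gave −0.21 for Hif1a and 0.04 for Arnt2, APP-KI;C3aRKO against APP-KI 0.09 for Arnt2 and −0.04 for Egln1, the difference of the C3ar1 effect 0.36 for Hif1a, the sorts in APP-KI −0.06 for Hif1a and −0.09 for Egln1, and the difference of the APP-KI effect between sorts −0.32 for Hif1a and −0.16 for Arnt2. With a term for Y-linked reads, Hif1an in all sorted APP-KI against WT was 0.01, Egln1 and Egln3 in APP-KI;C3aRKO against APP-KI −0.21 and −0.24, Egln1 in APP-KI;C3aRKO against C3aRKO −0.25, and Egln3 in the difference of the C3ar1 effect −0.18. Without the library series term, Hif1an in all sorted APP-KI against WT was 0.04, Arnt2 in APP-KI;C3aRKO against APP-KI 0.10 and Hif1a in the difference of the C3ar1 effect 0.07. Egln1 in APP-KI;C3aRKO against APP-KI was −0.03 with quantile normalization and −0.08 with only the groups compared. Egln3 in the difference of the C3ar1 effect was −0.03 with quantile normalization, −0.25 with edgeR and −0.26 with DESeq2. Arnt2 in the difference between sorts was −0.03 with a pseudocount of 0.1, −0.08 with quantile normalization and −0.10 with a library series term.

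Leaving out 1 library at a time gave −0.72 to 0.16 for Epas1 in libraries labelled C3aR-positive (0.16 without WT replicate 1) and −0.22 to 0.09 for Hif1an in all sorted APP-KI against WT. It gave −0.17 to 0.03 for Arnt2 and −0.08 to 0.24 for Egln1 in APP-KI;C3aRKO against APP-KI, and −0.05 to 0.40 for Egln1 in APP-KI;C3aRKO against C3aRKO. For the difference of the C3ar1 effect it gave −0.73 to 0.03 for Hif1a and −0.50 to 0.94 for Egln3, and for the difference between sorts −0.03 to 0.42 for Hif1a and −0.29 to 0.35 for Arnt2.

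Replicate numbers did not pair the samples: same-numbered libraries correlated at −0.30 to 0.25 in their deviations. In APP-KI;C3aRKO against APP-KI the replicate block kept only replicates 4 and 5 of each group. Those of APP-KI are of series 24 and stood apart, and those of APP-KI;C3aRKO are of series 26. Genotype and library series cannot be told apart there. Hif1a was 0.95 in that fit (limma adjusted p = 0.124). With the replicate block, Arnt2 was 0.41 in APP-KI;C3aRKO against APP-KI and Hif1an 0.04 in all sorted APP-KI against WT. The count of members called with the block was 4, 3, 0 and 3 in libraries labelled C3aR-positive, all sorted APP-KI against WT, APP-KI;C3aRKO against APP-KI, and against C3aRKO, the lost call being Arnt.

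Over all genes, calls (higher and lower) moved by over 1.5 times in these cases. At an adjusted p under 0.0005 they were 230 and 37 in libraries labelled C3aR-positive (1602 and 1195 at 0.05), 64 and 11 in all sorted APP-KI against WT (275 and 239), and 114 and 25 in APP-KI;C3aRKO against C3aRKO (491 and 369). Without the libraries that stood apart the last 2 were 956 and 948, and 1731 and 2427. With only the groups compared the last was 275 and 168, and with the replicate block 121 and 30. In APP-KI;C3aRKO against APP-KI (0 and 1) the block gave 287 and 172, but there genotype and library series cannot be told apart.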
